A study of Drosophila melanogaster with 2 samples.

Results

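MicroRNA precursor genes are short genes whose transcripts fold into hairpins. The members described here are all genes of Ensembl release 115 for Drosophila melanogaster whose name starts with mir- and whose transcript is annotated as a microRNA precursor, bantam (mir-ban) included. There are 262 such genes among 18358 annotated genes, transposable elements left out. Genes within 1000 bp of each other were joined, which gave 212 loci. Of these, 2 loci (mir-10404-1 and mir-10404-2) lie on a ribosomal DNA scaffold that no peak list covers. The other 210 loci, with 260 genes, lie on the 7 chromosomes, and all counts below are over them. Most are single hairpins: 187 loci hold 1 gene and 23 hold several, at most 8. The hairpins run from 50 to 174 bp with a median of 92 bp. RefSeq lists at least 1 mature microRNA for each of the 260 genes, 481 mature sequences in all.

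The series is a chromatin immunoprecipitation sequencing (ChIP-seq) study of ATbp, the AT-rich binding protein, which has zinc fingers. The only group is ATbp-eGFP embryos. They come from 1 stable transgenic line that makes ATbp with GFP fused to its C-terminal end. Whole embryos of both sexes aged 0 to 14 h were pooled, so a summit can come from any tissue or hour of that span. Chromatin was sonicated to 200 to 800 bp and precipitated with an antibody against GFP in 2 biological replicates. The deposited data are peak lists on build dm6. The authors' irreproducible discovery rate (IDR) list holds 5921 peaks. Relaxed lists hold 30000 peaks each for replicate 1, for replicate 2 and for the pool. Peaks are ranked by the authors' signal value, with rank 1 the strongest. The IDR signal lies between 128.5 and 4854.3 (median 220.5). The IDR list is the top 5921 of the pooled list, so a single peak in it need not rank alike in both replicates. Read counts are not in the lists, and library depth is therefore unknown. No control library was analysed here, and there is no second condition, so no test was made and the shares below are descriptions.

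A microRNA gene is transcribed as part of a longer primary transcript. The enzyme Drosha cuts the hairpin out of it, Dicer-1 cuts the hairpin to a duplex, and 1 strand is loaded into an Argonaute protein, where the seed at bases 2 to 8 pairs with target messenger RNAs. Some hairpins lie in introns of protein-coding genes and share the promoter of the host. Others lie in noncoding transcripts that are annotated as long noncoding RNA (lncRNA) genes and have a promoter of their own. In mirtrons the hairpin is a whole short intron, and splicing takes the place of Drosha. For these reasons a factor that acts on a microRNA gene may be found at the start of its host as well as beside the hairpin. Only summits within 2000 bp of a locus were taken here, so host starts farther away were not searched.

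The mature microRNAs below are a selection from loci with an IDR summit within 2000 bp, together with some partners that share their seed, so that loci with and without a summit can be set side by side. The sequences are read from the RefSeq annotation of Release 6 of the genome (dm6), 5′ to 3′, and capitals mark the seed.
mir-279-3p: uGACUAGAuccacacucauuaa
mir-996-3p: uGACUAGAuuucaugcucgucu
mir-ban-3p: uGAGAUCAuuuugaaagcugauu
mir-282-5p: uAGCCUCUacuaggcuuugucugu
mir-375-3p: uUUGUUCGuuuggcuuaaguua
mir-277-3p: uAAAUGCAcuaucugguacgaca
mir-34-5p: uGGCAGUGugguuagcugguugug
mir-92a-3p: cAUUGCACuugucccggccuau
mir-92b-3p: aAUUGCACuagucccggccugc
mir-13b-1-3p: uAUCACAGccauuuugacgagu
mir-13a-3p: uAUCACAGccauuuugaugagu
mir-2c-3p: uAUCACAGccagcuuugaugggc
mir-13b-2-3p: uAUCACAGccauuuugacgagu

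The DNA around 6 of the summits shows what lay under the peaks. The 3 strongest of those printed are the 3 best-ranked at any microRNA locus, and the other 3 are the best-ranked summits of loci in noncoding hosts that are described in full below. Each line is the plus strand of dm6 from 50 bp before to 50 bp after an IDR summit, and capitals mark runs of 8 or more A or T. The 6 windows are those of mir-279 (chr3R:29214400-29214500), mir-9378 (chr2L:10752060-10752160), mir-2493 (chr3R:15131785-15131885), mir-282 (chr3L:3250164-3250264), mir-ban (chr3L:640718-640818) and mir-375 (chr2L:856789-856889).
mir-279 summit: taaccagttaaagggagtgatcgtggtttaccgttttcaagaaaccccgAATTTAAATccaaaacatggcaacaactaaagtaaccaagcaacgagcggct
mir-9378 summit: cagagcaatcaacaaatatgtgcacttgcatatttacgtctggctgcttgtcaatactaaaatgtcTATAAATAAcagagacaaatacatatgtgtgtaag
mir-2493 summit: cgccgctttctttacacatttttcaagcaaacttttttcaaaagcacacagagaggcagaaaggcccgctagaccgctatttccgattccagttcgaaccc
mir-282 summit: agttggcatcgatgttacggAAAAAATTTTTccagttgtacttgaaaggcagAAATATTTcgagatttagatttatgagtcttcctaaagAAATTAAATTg
mir-ban summit: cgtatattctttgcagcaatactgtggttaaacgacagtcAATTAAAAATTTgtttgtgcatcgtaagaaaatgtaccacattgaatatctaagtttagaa
mir-375 summit: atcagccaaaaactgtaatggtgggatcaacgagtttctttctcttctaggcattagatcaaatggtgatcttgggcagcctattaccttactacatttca
The windows of mir-279, mir-9378 and mir-ban hold 1 such run each and that of mir-282 holds 3, while those of mir-2493 and mir-375 hold none.

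The hairpin of mir-4962 (chrX:3777382-3777505, plus strand, 124 bp) is the only 1 of the 260 hairpins that holds an IDR summit. The summit is at base 21 of the hairpin as printed, before the first mature arm. Capitals mark the 2 mature arms.
mir-4962 hairpin: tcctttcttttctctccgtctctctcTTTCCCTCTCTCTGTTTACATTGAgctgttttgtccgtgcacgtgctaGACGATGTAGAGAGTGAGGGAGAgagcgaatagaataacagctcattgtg

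Of the 210 loci, 35 (16.7%, Wilson 95% interval 12.2 to 22.3%, counting error only) had an IDR summit within 2000 bp. These loci hold 39 genes. For the background, 13.5% of all bases of the 7 chromosomes lie within 2000 bp of an IDR summit, and 13.9% of the bases of the 6 chromosomes that have peaks. A locus has more room than a single base, so the genes were also measured from the 5′ end of the hairpin alone. By that measure 36 of 260 genes (13.8%, Wilson interval 10.2 to 18.6%) had an IDR summit within 2000 bp, close to the 13.5% of bases. Of the 5′ ends of all other annotated genes, 22.2% (4002 of 18017) had one. The other short noncoding RNA genes of under 300 bp, such as transfer RNA and small nucleolar RNA genes, joined in the same way, gave 28.3% (86 of 304 loci). Measured from 5′ ends, the interval of the microRNA genes lies below the share of other genes and holds the share of bases. These 5′ ends differ in kind, because a hairpin is cut from a longer transcript and another gene begins at its annotated start. Of the 210 loci, 97 had no start of another gene within 2000 bp. Of bases within 2000 bp of a start, 21.3% were in reach of an IDR summit, against 8.97% of bases farther away. The comparison with other genes is therefore not like for like. The count from 5′ ends takes each gene of a cluster singly, and its interval treats such genes as independent. It therefore differs from the locus count in unit as well as in room. Counted singly but over the whole hairpin, 39 of 260 genes had an IDR summit within 2000 bp. The interval of the microRNA loci lies below the share of the other short noncoding RNA loci. No interval was taken for that share, and the difference was not tested. Those 304 loci join 587 genes, so they are more clustered than the 210 loci with 260 genes, and their room may differ.

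**Figure D1:**
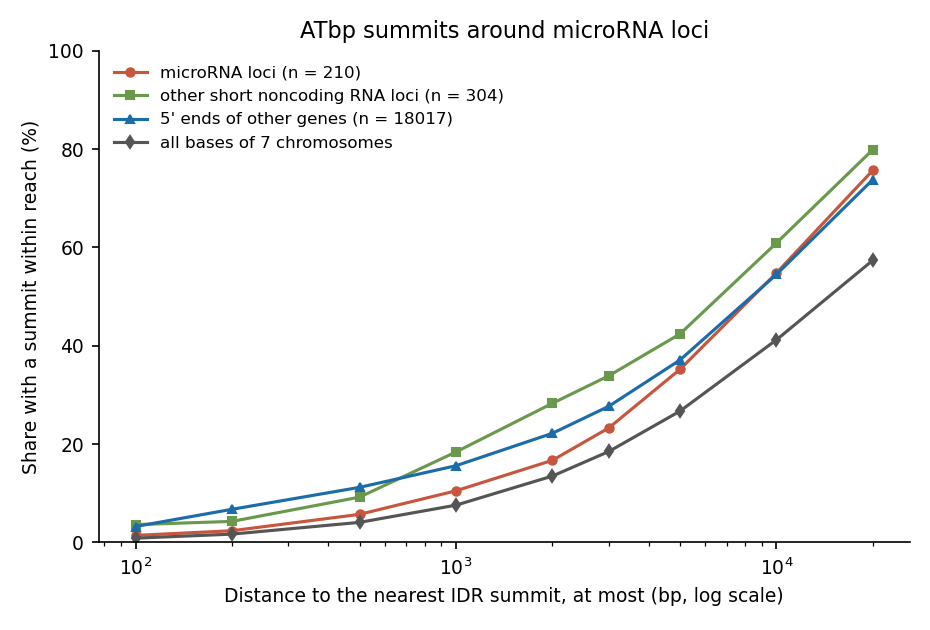
Share of microRNA loci, of other short noncoding RNA loci, of 5′ ends of other genes and of all bases (%, vertical axis) whose nearest IDR summit lies within the distance on the horizontal axis (bp, log scale). At 2000 bp the values are 16.7% of microRNA loci, 28.3% of other short noncoding RNA loci, 22.2% of other 5′ ends and 13.5% of bases, and at 500 bp they are 5.71%, 9.21%, 11.2% and 4.08%.

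The shares were also taken at other distances. Within 500 bp, 12 microRNA loci (5.71%) had an IDR summit, against 9.21% of the other short noncoding RNA loci, 11.2% of other 5′ ends and 4.08% of bases. Within 10000 bp, 115 microRNA loci (54.8%) had one, against 60.9% of the other short loci, 54.5% of other 5′ ends and 41.2% of bases. The median distance from a microRNA locus to its nearest IDR summit was 8454.5 bp. The loci farthest from any were mir-2279 in an intron of MFS17, at 3500587 bp, and mir-2490, at 1020267 bp.

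The relaxed lists reach far down into weak peaks. In the pooled relaxed list 103 loci (49.0%) had a summit within 2000 bp, against 42.3% of bases. In replicate 1 there were 106 (50.5%), against 41.7% of bases, and in replicate 2 there were 110 (52.4%), against 45.6% of bases. A summit in the pool and in both replicates was found at 86 loci (41.0%, Wilson interval 34.5 to 47.7%), against 32.5% of bases. These relaxed counts are for whole loci, which have more room than a single base. They were not repeated from 5′ ends or set beside other genes. Both replicates had a summit at 89 loci, replicate 1 alone at 17, replicate 2 alone at 21 and neither at 83. No list had a summit within 2000 bp of 80 loci (38.1%).

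The loci were then split by where they lie. Of loci inside a noncoding gene on the same strand, 8 of 32 (25.0%, Wilson interval 13.3 to 42.1%) had an IDR summit, against 18.1% of bases in noncoding genes. Of loci inside a protein-coding gene on the same strand, 23 of 126 (18.3%, 12.5 to 25.9%) had one, against 16.6% of bases in introns. Only 1 of 18 loci that lie in a gene on the other strand alone (5.56%, 0.988 to 25.8%) and 3 of 34 intergenic loci (8.82%, 3.05 to 23.0%) had one, against 9.09% of bases between genes. The intervals of the 4 classes overlap, and each holds the share of the bases it is set against, with bases in introns used for genes on the other strand. Some loci in coding hosts or in genes on the other strand lie in exons, such as mir-2280 in c-cup. No share of exon bases was taken, so these classes and their bases are not fully alike.

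The loci were also split by whether a transcription start site (TSS) of another gene, host included, lies nearby. With a TSS within 2000 bp, 26 of 113 loci (23.0%, Wilson interval 16.2 to 31.6%) had an IDR summit, against 21.3% of such bases. With none, 9 of 97 loci (9.28%, 4.96 to 16.7%) had one, against 8.97% of such bases. In both classes the share of loci is near that of bases of the same kind. Intron-filling hairpins, counted as mirtron-type where both hairpin ends lie within 5 bp of the ends of an intron, had a summit at 5 of 34 loci (14.7%), and other loci in coding hosts at 18 of 92 (19.6%). The 5 were mir-4918 in tex, mir-4919 in Cyp4aa1, mir-1012 in Lerp, mir-1013 in wts and mir-4912 in Fnta. Clusters of several genes had one at 3 of 23 loci (13.0%) and single hairpins at 32 of 187 (17.1%). By chromosome the counts were 6 of 42 on 2L, 9 of 40 on 2R, 4 of 30 on 3L, 9 of 51 on 3R, 0 of 2 on 4 and 7 of 45 on X.

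**Figure D2:**
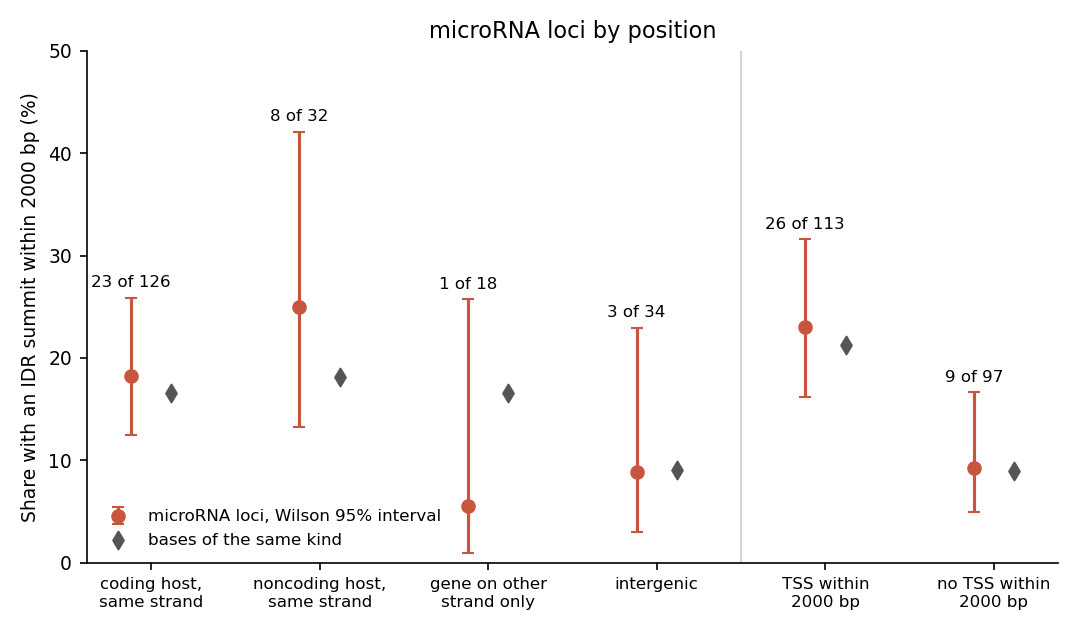
Share of microRNA loci with an IDR summit within 2000 bp (%, vertical axis) by class of position (horizontal axis). Points are microRNA loci with Wilson 95% intervals, and diamonds are the bases each class is set against. Bases in introns were used for coding hosts and for genes on the other strand, though some of these loci lie in exons. Loci with a TSS within 2000 bp stand at 23.0% and those without at 9.28%, near the 21.3% and 8.97% of bases.

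The 35 loci carried 54 IDR summits: 21 loci had 1, 9 had 2 and 5 had 3. The summits spread over the whole range of strength. The best rank at a locus, that of the strongest of up to 3 summits, lay between 48 and 5746 (median 2922). The median rank of the list is 2961, but it is over single summits, so these medians are not like for like. Among the loci, 4 had a summit in the top 500, 8 in the top 1000 and 14 in the top 2000. Along the strand of the hairpin, 30 summits lay upstream, 22 downstream and 2 inside a locus, and the strongest summit lay upstream at 24 of the 35 loci. Within 500 bp of a TSS were 19 summits (35.2%), close to the 34.5% of all IDR summits. The other 35 were in exons (12), introns (16) or between genes (7). At 11 loci a summit lay within 500 bp of a TSS of the host itself.

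**Figure D3:**
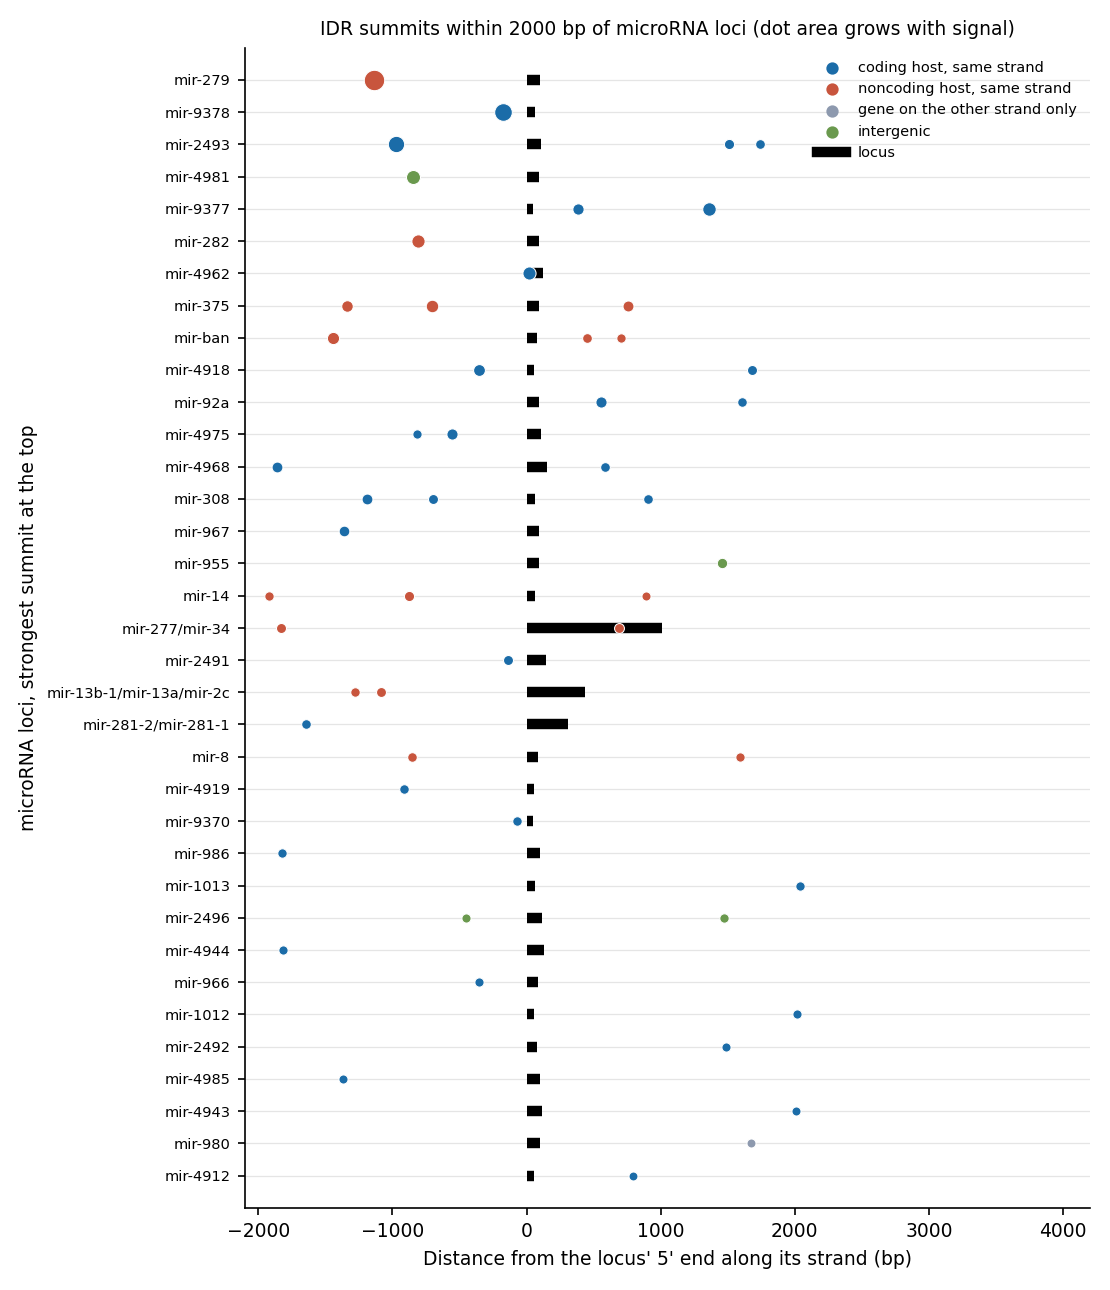
IDR summits within 2000 bp of the 35 microRNA loci that have one, 1 locus per line with the strongest at the top. The horizontal axis is the distance from the 5′ end of the locus along its strand (bp), black bars are the loci, and dots are summits with an area that grows with the authors' signal and a colour for the class of position. The strongest summit lies upstream of 24 loci, including all 8 in noncoding hosts.

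In noncoding hosts, 8 loci had 17 IDR summits, and the strongest lay upstream of the hairpin at all 8. At 4 of them (mir-279, mir-282, mir-14 and mir-8) a summit lay within 500 bp of the TSS of the host. Their best ranks ran from 48 to 3721 with a median of 1867.5. In coding hosts, the best ranks of 23 loci lay between 137 and 5746 (median 3623), the strongest summit lay upstream at 15, and 7 had a summit within 500 bp of a TSS of the host. These 23 loci had 32 summits, fewer per locus than in noncoding hosts, so the best ranks are not like for like. No background was taken for the upstream counts, and the difference between the classes was not tested.

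The strongest summit at any microRNA locus was that of mir-279 (chr3R:29215585-29215684, plus strand), a microRNA that limits the formation of CO2-sensing olfactory neurons. Its summit at 29214450 ranked 48 with a signal of 1688.3, 1135 bp upstream of the hairpin and 112 bp from the TSS of the host, lncRNA:CR31044. Its signal was 840.2 in replicate 1 (rank 58) and 853.7 in replicate 2 (rank 43). Both replicates placed it among their strongest peaks. The neighbour mir-996, which has the same seed as mir-279 in the sequences above and the same host, lies farther along the transcript. Its nearest IDR summit was 2734 bp away, the same peak, so mir-996 falls outside the limit of 2000 bp.

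Next among the noncoding hosts was mir-282 (chr3L:3251022-3251118, plus strand), in an exon of lncRNA:CR43626. Its 1 summit ranked 637 with a signal of 575.2, lay 808 bp upstream and 380 bp from the TSS of the host, and ranked 780 in replicate 1 and 545 in replicate 2. For mir-375 in lncRNA:CR45345, whose mammalian counterpart acts in insulin-secreting cells, 3 summits were listed. They ranked 890 at 703 bp upstream, 1378 at 1337 bp upstream and 1816 at 664 bp downstream, and all 3 were found in both replicates. None was within 500 bp of the TSS of the host.

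Bantam (mir-ban, chr3L:642208-642288, plus strand), which drives tissue growth and represses the cell death gene hid, also had 3 summits, all in exons of lncRNA:CR43334. The strongest, at 640768, ranked 1014 with a signal of 447.0 and lay 1440 bp upstream. It ranked 1721 in replicate 1 and 712 in replicate 2. The other 2 lay 371 bp downstream (rank 3441) and 623 bp downstream (rank 4371). That last summit ranked 2703 in replicate 1 but 10813 in replicate 2, so its strength differed between the replicates.

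In the locus of mir-277 and mir-34 (chr3R:10100022-10101034, plus strand) a summit at 10100713 lay between the 2 hairpins, in an exon of lncRNA:CR43459. In the fly, mir-277 controls branched-chain amino acid breakdown and mir-34 acts in the ageing brain. The summit between them ranked 3160 with a signal of 211.6. It had a replicate 1 summit (rank 4114) and no replicate 2 summit within 100 bp. The other summit, 1829 bp upstream, ranked 2922 and was found in both replicates at ranks 3664 and 2601. The cluster of mir-13b-1, mir-13a and mir-2c in lncRNA:CR45911 belongs to the family that represses cell death genes such as reaper and grim. Its summits lay 1083 bp upstream (rank 3076, found in replicate 2 alone at rank 2964) and 1282 bp upstream (rank 4021, found in both).

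The other 2 noncoding hosts lie on 2R. For mir-14, which holds back cell death and fat storage, 3 summits ranked 2721, 4266 and 5230, and the strongest was 44 bp from the TSS of lncRNA:CR43651 and 874 bp upstream of the hairpin. It ranked 4453 in replicate 1 and 2123 in replicate 2. For mir-8, the fly counterpart of the vertebrate mir-200 family and a regulator of body growth, a summit 113 bp from the TSS of lncRNA:CR43650 ranked 3721 and was found within 100 bp in replicate 2 alone (rank 2600). A second one 1509 bp downstream ranked 4436 and was found in both.

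Among the coding hosts the strongest summit was at mir-9378 (rank 137, signal 1195.6), 172 bp upstream of the hairpin and 4215 bp from the nearest TSS, in an intron of CG17124. It ranked 111 in replicate 1 and 184 in replicate 2. The summit of mir-2493 (rank 209, signal 992.5) lay 976 bp upstream and 91 bp from the TSS of its host CG42788. It was stronger in replicate 1 (rank 109) than in replicate 2 (rank 506). Of 2 further summits downstream of mir-2493, that of rank 2678 was found in both replicates and that of rank 3438 in replicate 1 alone.

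The intergenic mir-4981 (rank 474, signal 665.7) had its summit 843 bp upstream and 651 bp from the nearest TSS, that of CG14762. It ranked 737 in replicate 1 and 351 in replicate 2. In an intron of Tis11, a zinc finger gene of messenger RNA decay, mir-9377 had 2 summits downstream at 1313 bp (rank 584, signal 602.0) and 333 bp (rank 1548). Both were far from a TSS, 5067 bp or more. The summit inside the hairpin of mir-4962, in an intron of the Tousled-like kinase gene Tlk, ranked 683 with a signal of 556.9. It was found 2 bp away in replicate 1 (rank 494) and 1 bp away in replicate 2 (rank 1024).

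The 10 best-ranked loci end with mir-4918, whose hairpin is an intron of tex, a gene of the THO messenger RNA export complex. Its stronger summit (rank 1205, signal 404.9) lay 353 bp upstream and 193 bp from the TSS of tex, and ranked 670 in replicate 1 and 2458 in replicate 2. The remaining 5 coding hosts with a summit within 500 bp of their own TSS were jigr1 (mir-92a), CG45092 (mir-4975), bun (mir-967), the ribosomal protein gene RpS23 (mir-308) and the purine synthesis gene Pfas (mir-966). Their best summits ranked 1626, 1638, 2063, 1900 and 4770, in that order.

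For mir-92a, which with mir-92b keeps the pool of neural stem cells, the stronger of 2 summits was 462 bp downstream of the hairpin and 184 bp from a TSS of jigr1. It ranked 2000 in replicate 1 and 1266 in replicate 2. The nearest IDR summit to mir-92b, in an exon of the same host, was 3285 bp away.

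The other loci in coding hosts had a best rank of 1899 or weaker, and the summit lay 822 to 99327 bp from the nearest TSS of the host. They were mir-4968 in Mob2 (rank 1899), mir-2491 in the gastrulation ligand gene fog (2989), the mir-281-2 and mir-281-1 pair in Oda (3623), mir-4919 in Cyp4aa1 (3866), mir-9370 in Amun (3956), mir-986 in Cyp4e2 (4205), mir-1013 in the Hippo pathway kinase gene wts (4265), mir-4944 in the homeobox gene hth (4682), mir-1012 in Lerp (4771), mir-2492 in the kinase gene Drak (5044), mir-4985 in Fatp3 (5207), mir-4943 in CG5953 (5328) and mir-4912 in Fnta (5746). The summit of mir-4944 lay 99327 bp from the nearest TSS of hth. At the mir-281 pair, mir-986 and mir-9370 a summit lay within 500 bp of a TSS of another gene. Outside coding hosts, the intergenic mir-955 (2434) and mir-2496 (4345), and mir-980 (5509), which lies in CG3777 on the other strand, complete the list.

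Replicates were compared summit by summit. Of the 54 IDR summits, 47 (87.0%, Wilson interval 75.6 to 93.6%) were matched by a relaxed summit of each replicate at most 100 bp away. Another 5 were matched in replicate 1 alone and 2 in replicate 2 alone. Of all IDR summits, 5481 of 5921 (92.6%) had one in both. Of the 35 loci, 34 had relaxed summits within 2000 bp in both replicates, and the exception was the mir-281-2 and mir-281-1 pair, with none in replicate 2. The 5921 strongest peaks of replicate 1 reached 38 loci and those of replicate 2 reached 35. Both reached 28, and all 28 are among the 35 loci with an IDR summit. The IDR list is the top of the pool of these same 2 replicates, so this overlap is not an independent check.

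**Figure D4:**
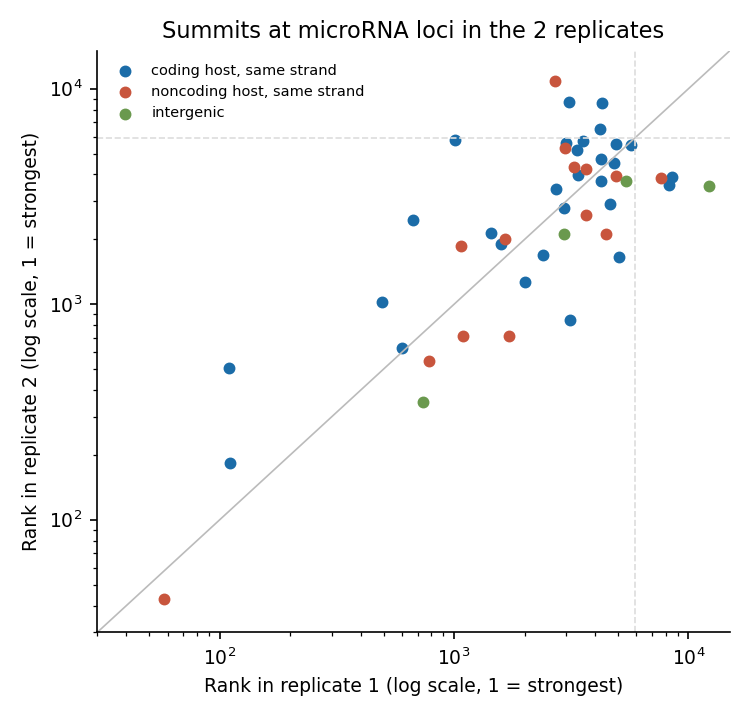
Rank in replicate 2 (vertical axis, log scale) against rank in replicate 1 (horizontal axis, log scale) for the 47 IDR summits at microRNA loci found in both, coloured by class of position. The line marks equal ranks and dashes mark rank 5921. The mir-279 summit is the lowest left point (58 and 43), and the weaker summits scatter around the line.

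Of the 175 loci without an IDR summit in reach, 68 had a pooled relaxed one. The best-ranked were mir-4978 (pooled rank 5929, signal 128.4), mir-4974 (6173, signal 124.3) and the pair mir-314 and mir-956 (6456, signal 120.3). They stand just below the end of the IDR list at rank 5921. For mir-4974, in an intron of CG8671, the summit nearest the hairpin lay inside it in all 3 relaxed lists. By class, a pooled relaxed summit was in reach of 15 of the 24 loci without an IDR summit in noncoding hosts and 35 of 103 in coding hosts. It was in reach of 13 of 31 intergenic loci and 5 of 17 in genes on the other strand alone. Of all bases, 42.3% lie within 2000 bp of a pooled relaxed summit, those near IDR summits included. The difference between the classes was not tested. For the 24 loci in noncoding hosts, the nearest IDR summit was 2239 to 47957 bp away.

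A set of 45 well-studied genes was looked up whatever their values, and 44 were found in the annotation, in 31 loci. An IDR summit was in reach of 7 of these loci (22.6%, Wilson interval 11.4 to 39.8%), against 16.7% of all 210 loci: mir-ban, mir-14, mir-8, mir-282, mir-277 with mir-34, mir-92a and mir-279. The muscle microRNA mir-1 had its nearest one at 7391 bp, the neuronal mir-124 at 16730 bp and the mir-100, mir-let7 and mir-125 cluster, which times development, at 5193 bp. For the cluster of mir-309, mir-3, mir-286, mir-4, mir-5 and the mir-6 copies, which clears maternal messenger RNA in the early embryo, it was 21568 bp, and none of the 4 lists had a summit within 2000 bp.

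Several of these loci had weaker summits. Near mir-1 the pooled relaxed list had a summit at 777 bp, and the best ranks within 2000 bp were 12600 in the pool, 12672 in replicate 1 and 8731 in replicate 2. For mir-9a, which limits the number of sense organ precursors, a replicate 1 summit lay inside the hairpin and a pooled one 52 bp away, with best ranks within 2000 bp of 11852 and 17215. Its nearest IDR summit was at 4310 bp. For mir-7, which acts in Notch signalling, the nearest IDR summit was 33393 bp away and the best pooled relaxed rank was 15021. The Hox complex microRNAs mir-iab-4 and mir-iab-8 were 13055 bp from an IDR summit with a pooled rank of 8615. For mir-10 the nearest IDR summit was 4526 bp away and the nearest pooled relaxed one 3022 bp away. Replicate 1 had a summit 551 bp from mir-10, with a best rank within 2000 bp of 10351, and the nearest in replicate 2 was at 2983 bp.

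The further loci of the set without an IDR summit in reach ranged from mir-276a at 2239 bp to mir-278 at 18861 bp. The pair mir-275 and mir-305, 2257 bp from an IDR summit, held a relaxed summit in all 3 lists, with best ranks of 7060 in the pool, 4753 in replicate 1 and 8171 in replicate 2. The limit of 2000 bp decides such cases. Just inside it were mir-4943 at 1891 bp, mir-1012 at 1956 bp and mir-1013 at 1982 bp. Just outside were mir-1009 at 2153 bp, mir-276a at 2239 bp, mir-275 with mir-305 at 2257 bp, mir-2495 at 2305 bp and mir-1004 at 2312 bp.

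Seeds shared by several loci, of which at least 1 had an IDR summit, were looked at next. Seeds of loci with no summit are left out, so the counts say nothing of families in general, and 16.7% of all loci had a summit. The seed AUCACAG of the mir-2, mir-13, mir-11, mir-308, mir-5 and mir-6 genes occurs at 7 loci, of which 2 had an IDR summit: the mir-13b-1, mir-13a and mir-2c cluster and mir-308. The mature mir-13b-1-3p and mir-13b-2-3p printed above are made at separate loci, and the nearest IDR summit to mir-13b-2, in an intron of CCT2, was 10082 bp away. The seed GACUAGA occurs at 3 loci (mir-279, mir-996 and mir-286), of which mir-279 had a summit, and AUUGCAC occurs at 3 (mir-92a, mir-92b and the mir-310 cluster), of which mir-92a had one. Both loci with the seed AGCUGCC, mir-4968 and mir-980, had one. The seed CAUCAAA (mir-2c-5p and mir-4951) and the seed GAACACA (mir-4943 and mir-317) each had 1 of 2.

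A+T content was compared between these summits and IDR summits as a whole. In windows that reach 50 bp to either side of the summit, A+T content was 61.5 ± 8.28% (SD, 54 summits at microRNA loci) against 64.7 ± 9.26% (SD, all 5921 IDR summits). The difference between the means was not tested. It ran from 40.6 to 77.2% at the microRNA loci. Within 500 bp of a TSS the means were 60.0 ± 7.25% (19 summits) against 64.1 ± 10.2% (2044 summits), and farther from one 62.3 ± 8.78% (35 summits) against 65.0 ± 8.71% (3877 summits). A run of 8 or more A or T occurred in 36 of the 54 windows (66.7%, Wilson interval 53.4 to 77.8%), against 70.9% of all IDR windows. The 54 summits are part of the 5921.

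Of 20 genes that make or use microRNAs and other small RNAs, 4 (20.0%, Wilson interval 8.07 to 41.6%) had an IDR summit within 500 bp of a TSS, against 14.9% of protein-coding genes (2078 of 13968). They were gw, the GW182 partner of Argonaute in silencing (rank 1470, signal 361.3, 92 bp from a TSS), r2d2, the Dicer-2 partner that loads small interfering RNA (rank 1973, 262 bp), twin, the CCR4 deadenylase (rank 2209, 394 bp), and AGO1, the main microRNA Argonaute (rank 5309, 118 bp). Those of r2d2 and twin were matched in both replicates, those of gw and AGO1 in replicate 1 alone. The processing enzymes drosha, pasha, Dcr-1 and loqs had none, and their nearest IDR summits were 19547, 1823, 9626 and 4775 bp from a TSS.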

How the data were processed

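MicroRNA loci were set against 4 peak lists of ATbp-eGFP embryos, 2 biological replicates in 1 group. Per the labels and the text notes deposited with the samples, the relaxed lists came from each replicate, and from the pool, with a control, and were the input of the IDR analysis. Tools and versions for alignment and peak calling, and the IDR threshold, are not given in any source read for this work. The signal of a peak is the authors' own value, deposited with no scale stated, and was used only to rank peaks within a list. The −log10 q-value of a peak is also the authors' deposited value and was not used to filter. Library depth is unknown, and intervals on shares cover counting error only.

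Summits, 1-based on dm6, were set against Ensembl release 115 (BDGP 6.54), whose coordinates fit those of RefSeq Release 6, from which sequences were read. The lists on dm3 were not used. A summit was in reach within 2000 bp of a locus, at a promoter within 500 bp of a TSS, and matched between lists within 100 bp. Backgrounds are shares of bases or genes counted with the same limits. The counting was tested on simulated summits. Python 3.11.15, NumPy 2.4.6, pandas 2.3.3, SciPy 1.17.1 and matplotlib 3.10.9 were used. Alternatives were other distances, joinings and match limits, the stronger part of the IDR list, peak intervals in place of summits, and 1 replicate alone.

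The members, gene lists and measures were chosen with earlier results of these data known. Named are every locus with an IDR summit (the 10 best-ranked in full), the 3 best-ranked loci with relaxed summits alone, 45 listed genes whatever their values, pathway genes with a promoter summit, and hosts of these loci. Of the listed genes, mir-263a was not analysed here. The farthest loci, the loci on either side of the distance limit, and seed partners were named after their values were seen.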

Additional observations from a re-analysis of the deposited data

How the results depend on the processing

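The count of loci with an IDR summit depends on the distance allowed. It was 35 of 210 at 2000 bp, and 12 at 500 bp, 22 at 1000 bp and 74 at 5000 bp, and 18 with the summits stronger than the median of the IDR list. Genes counted from the 5′ end gave 36 of 260, and 10, 23, 81 and 18 under the same 4 settings. The backgrounds rose with distance as well. At 500, 1000, 2000 and 5000 bp the loci stood at 5.71%, 10.5%, 16.7% and 35.2%. Bases stood at 4.08%, 7.58%, 13.5% and 26.7%, and 5′ ends of other genes at 11.2%, 15.6%, 22.2% and 37.1%. Loci with relaxed summits in the pool and both replicates were 86, and 29 at 500 bp and 54 at 1000 bp. For these relaxed counts no share of bases was taken at 500 or 1000 bp. Without replicate 1 and without replicate 2, using the 5921 strongest peaks of the one left, the loci were 35 to 38 and the genes 39 to 42. With genes not joined 39 of 260 had an IDR summit, and joining within 10000 bp gave 35 of 198. Counting any part of a peak gave 36 loci. Loci in a host gene on the same strand were 88.6% of those with a summit, and 85.1 to 91.7% under the alternatives run. Most loci lie in such a host with or without a summit, 158 of 210. Of those 158, 31 (19.6%, Wilson interval 14.2 to 26.5%) had a summit, against 16.7% of all loci. Summits found in both replicates were 47 of 54, and 40 and 50 with matches within 50 and 200 bp. Mean A+T content was 61.5%, and 60.2% in windows reaching 100 bp to either side. No paired analysis was possible because there is 1 group. Each relaxed list holds 30000 peaks and the IDR list ends at rank 5921, so weaker summits are not listed. Library depth is unknown, and its bearing on weak summits was not tested.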
